A study of Homo sapiens with 6 samples.

Results

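Gemcitabine is a deoxycytidine analogue used against pancreatic cancer. The 10 genes described here encode transporters, kinases, deaminases and nucleotidases, grouped for gemcitabine uptake and nucleoside salvage. The genes are SLC29A1, SLC29A2, DCK, CMPK1, CDA, DCTD, NT5C, NT5C2, NT5C3A and NT5E, the last of which encodes an enzyme of the cell surface. They were taken by gene symbol from the 58735 genes of the expression table of PANC-1 cells, an established human pancreatic adenocarcinoma line with ductal features. Each symbol matched 1 row, and all 10 genes had enough counts to be tested. After METTL16 silencing, NT5C3A and DCK rose, CMPK1, CDA and SLC29A1 fell, and the other 5 genes did not pass the test. The falls of CDA and SLC29A1 were fragile, called in 7 and 9 of 15 alternative ways of processing. The rise of NT5C3A was more than a doubling, while the other 4 called changes stayed between 77.5% and 134% of the control level.

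The samples were 3 cultures given control siRNA (si-NC) and 3 given siRNA against METTL16 (si-METTL16), an RNA methyltransferase. The study sequenced them to look for what acts downstream of METTL16 in the proliferation of pancreatic cancer cells. The titles name the control siRNA, whereas a second label of the control samples reads WT. The methods describe biological triplicates and stable transfection, do not give the time from transfection to harvest for the sequenced cells, and do not say which of the 3 listed METTL16 siRNAs were sequenced. They also describe knockdown lines made with shRNA and puromycin selection, without saying whether the sequenced cells were selected that way. No sample was labelled as exposed to gemcitabine, so the values are RNA levels of its handling genes with no exposure to it named. Every culture was PANC-1 in the same medium, and the comparison holds for this line only.

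As background, gemcitabine enters cells mainly through equilibrative nucleoside transporters, above all ENT1, the product of SLC29A1. Deoxycytidine kinase, encoded by DCK, adds the initial phosphate, which is regarded as the rate-limiting step, and CMPK1 adds the next before nucleoside diphosphate kinases complete the triphosphate that enters DNA. Cytidine deaminase, encoded by CDA, inactivates the drug itself, and dCMP deaminase, encoded by DCTD, acts on its monophosphate. Nucleotidases take phosphate off again, and the diphosphate inhibits ribonucleotide reductase, which lowers competing dCTP. The same proteins serve the salvage of natural nucleosides.

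Depth was similar in all samples, with totals from 15725298 to 18054436 counts. Levels are given as CPM, counts scaled to a library of 1e6 after TMM correction for RNA composition, and a floor of 3 counts, 0.167 to 0.192 CPM, is far below every member. METTL16 itself fell in each silenced culture, from between 91.5 and 101 CPM to between 33.9 and 34.9 CPM. All 7 epithelial and ductal markers checked were detected, though KRT7, KRT19, CDH1 and SOX9 fell. Of 19 markers of other cell types, 16 were too low to test, none of them above 0.799 CPM, and 3 of the 19, CD3E, CPA1 and GCG, were at 0 in every sample. COL1A1 was the exception in level, with a summed stromal list of 324 to 374 CPM in the controls and 801 to 839.9 CPM after silencing, while the other 5 stromal markers were not testable. Among the 4 immune markers CD68 rose (edgeR, adjusted p = 0.00928) and CD14 fell (adjusted p = 0.0409, up to 0.114 over the alternatives, with 8 of 15 calling it), with a summed level of 8.70 to 9.55 CPM in the controls and 9.57 to 11.6 CPM after silencing. The part of these marker shifts in the results was not tested. In bulk RNA, fewer cells with a transcript and less of it per cell cannot be told apart.

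Promoters are shown for NT5C3A and CDA, the called genes at either end of the response, and for DCK. Of these genes, DCK, which rose, and CDA, which fell, each hold a short motif near the start, from the E2F words given below. The word differs between the DCK and CDA windows, and neither NT5C3A window holds any of these words. The windows come from RefSeq on GRCh38.p14 and run from 250 bases before to 50 bases after an annotated start. RefSeq windows were found for 9 of the 10 genes, all except SLC29A2. In capitals are the E2F core (TTTCCCGC, TTTGGCGC, TTTGCCGC or TTTCGCGC on either strand), the TATA box (TATAAA) and the CCAAT box (CCAAT), each searched on both strands.
NT5C3A, distal start (chr7:33062727-33063026, minus strand): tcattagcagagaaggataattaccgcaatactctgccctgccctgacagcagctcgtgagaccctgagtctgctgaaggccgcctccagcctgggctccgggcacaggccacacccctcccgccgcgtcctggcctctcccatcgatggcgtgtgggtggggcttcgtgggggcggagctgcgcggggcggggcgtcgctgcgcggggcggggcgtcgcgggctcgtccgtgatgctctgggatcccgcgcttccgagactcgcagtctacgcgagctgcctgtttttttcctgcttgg
NT5C3A, internal start (chr7:33040857-33041156, minus strand): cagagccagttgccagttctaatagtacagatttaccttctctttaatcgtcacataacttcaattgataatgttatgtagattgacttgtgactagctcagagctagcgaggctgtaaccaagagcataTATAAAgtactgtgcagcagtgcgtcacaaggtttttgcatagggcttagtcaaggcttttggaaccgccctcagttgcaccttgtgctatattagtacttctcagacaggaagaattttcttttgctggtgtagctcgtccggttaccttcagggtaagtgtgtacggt
DCK (chr4:70993399-70993698, plus strand): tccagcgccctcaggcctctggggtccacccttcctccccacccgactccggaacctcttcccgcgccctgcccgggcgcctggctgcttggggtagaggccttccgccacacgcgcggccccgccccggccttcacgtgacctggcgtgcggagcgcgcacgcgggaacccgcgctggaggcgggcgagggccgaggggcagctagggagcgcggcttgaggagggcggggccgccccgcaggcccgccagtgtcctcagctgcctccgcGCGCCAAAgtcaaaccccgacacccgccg
CDA (chr1:20588847-20589146, plus strand): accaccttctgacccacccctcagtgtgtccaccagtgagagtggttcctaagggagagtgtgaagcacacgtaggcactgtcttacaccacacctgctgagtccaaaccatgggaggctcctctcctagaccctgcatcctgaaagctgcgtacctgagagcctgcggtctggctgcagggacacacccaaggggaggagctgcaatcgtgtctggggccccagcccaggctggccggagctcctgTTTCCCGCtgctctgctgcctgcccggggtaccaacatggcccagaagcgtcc

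Of the 14 windows of the 9 genes, only those of DCK and CDA held an E2F core, against 3.31% of 35116 windows in the table. DCK, which rose, carried it as GCGCCAAA from 21 to 28 bases after the start base, and CDA, which fell, as TTTCCCGC from 3 bases before to 4 bases after it. The NT5C3A windows differed from each other: the distal one had 67.7% G and C with 30 CpG and the internal one 43.0% with 7 CpG. The internal window alone among the 14 held TATAAA, which 11.5% of all windows hold. No window held a CCAAT box, which occurs in 34.6% of all windows. The GC box (GGGCGG), also searched on both strands but not set in capitals, is held by 45.0% of all windows. Among the windows shown, that of DCK held it 3 times and that of CDA 0 times. The distal NT5C3A window held it 3 times and the internal one 1 time. A match is a run of letters, and binding was not measured. The nonamer TACAGAGAA, in which METTL16 methylates MAT2A mRNA, was found in none of the 10 MANE Select transcripts (1 reference transcript a gene, GENCODE v44), while 653 of 19061 such transcripts (3.43%) hold it. These transcripts hold no introns and 1 isoform a gene. Only TACAGAGAA itself was searched, and variants of it and RNA folding were left out, so other METTL16 sites could be missed.

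Across all 15089 genes tested, 35.9% were called at an adjusted p under 0.05 (edgeR's quasi-likelihood test, adjusted after Benjamini and Hochberg), 18.4% higher and 17.5% lower after silencing. Of the 10 members, 5 (50.0%) were called, 2 higher and 3 lower, which on 10 genes is near the background. The median log2 fold change was 0.06 over the members and 0.00 over all tested genes, and the median absolute log2 fold change was 0.24 and 0.33. Fold changes are si-METTL16 over si-NC, and all adjusted p-values below are from edgeR over all 15089 genes unless another fit is named. Control and silenced samples were fully separated for 5 members, the same 5 that were called, as they were for 50.9% of all tested genes. Means are given with the SD of 3 samples a group, and single values are listed in the order of replicates 1, 2 and 3, controls before silenced samples.

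**Figure D1:**
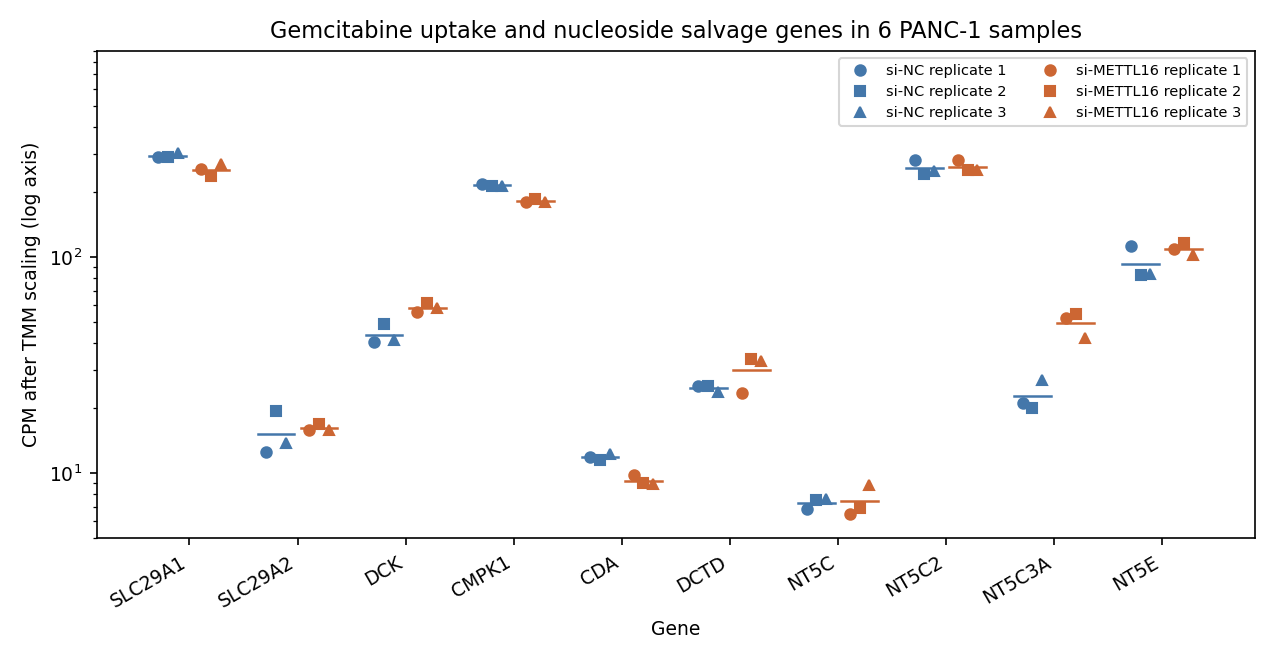
Expression of the 10 genes in each sample as CPM after TMM scaling (log axis), with si-NC in blue, si-METTL16 in orange, a symbol for each replicate number and a line at each group mean. NT5C3A lay at 20.1 to 26.9 CPM in the controls and at 42.4 to 54.7 CPM after silencing, the widest separation, and NT5C was the lowest gene by CPM.

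Of the uptake carriers, SLC29A1 fell slightly and SLC29A2 did not pass the test. SLC29A1 (ENSG00000112759, chromosome 6 from 44219505 to 44234151) had 289, 289.6 and 302 CPM in the controls against 255, 238 and 269 CPM after silencing. Every silenced culture lay below every control, but the highest silenced value was close to the lowest control. SLC29A1 fell by 13.5% (log2 fold change -0.21, 95% interval -0.35 to -0.07, adjusted p = 0.0325). With 1 of the 6 samples left out at a time, the call was kept only without si-METTL16 replicate 3 (adjusted p = 0.0308), and it was lost without each of the other 5 samples, at adjusted p up to 0.105. Over all 15 alternatives its adjusted p ran from 0.0236 to 0.105, and 9 of them called it. SLC29A2 (ENSG00000174669, chromosome 11 from 66362521 to 66372214), which encodes the related carrier ENT2, had 12.5, 19.4 and 13.8 CPM in the controls against 15.9, 16.9 and 15.9 CPM after silencing. Its silenced samples lay within the control range, which si-NC replicate 2 widened. The interval of its log2 fold change, -0.31 to 0.50, left room for changes in either direction (estimate 0.09, adjusted p = 0.709), and the estimate was -0.04 without si-NC replicate 1 and 0.30 without si-NC replicate 2.

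The kinases that activate gemcitabine moved in opposite directions. DCK (ENSG00000156136, chromosome 4 from 70992538 to 71030914) had 40.4, 49.0 and 41.1 CPM in the controls against 55.4, 61.1 and 58.1 CPM after silencing. The groups did not overlap, with si-NC replicate 2 the closest control. DCK rose by 33.9% (log2 fold change 0.42, standard error 0.10, adjusted p = 0.0141). Of the 15 alternatives 14 called it, with adjusted p from 0.0037 to 0.0521, the highest without si-NC replicate 3. DCK shares 199 exon bases, 6.41% of its exon bases, with MOB1B on the same strand, so reads there are uncertain. CMPK1 (ENSG00000162368, chromosome 1 from 47333797 to 47378839), the UMP/CMP kinase, had 218, 214 and 213 CPM in the controls against 179, 185 and 179.5 CPM after silencing. Both groups were tight and lay well apart. CMPK1 fell by 15.8% (log2 fold change -0.25, standard error 0.05, adjusted p = 0.00728), and this was called in all 15 alternatives, with adjusted p from 0.00173 to 0.0293.

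Of the deaminases, CDA fell and DCTD did not pass the test. CDA (ENSG00000158825, chromosome 1 from 20588948 to 20618908) had counts of 201, 196 and 215 in the controls and of 161, 140 and 160 after silencing. In CPM this was 11.9 ± 0.357 in the controls and 9.23 ± 0.505 after silencing, without overlap. CDA fell by 22.5% (log2 fold change -0.37, 95% interval -0.62 to -0.11, adjusted p = 0.0354). This call was fragile, since only 7 of 15 alternatives kept it, with adjusted p from 0.00672 to 0.0995. When 1 sample was left out it was kept only without si-METTL16 replicate 1 (adjusted p = 0.0499), and the settings that lost it also included DESeq2 (0.077) and no filter on low counts (0.0721). DCTD (ENSG00000129187, chromosome 4 from 182890060 to 182917936) had 25.4, 25.3 and 23.7 CPM in the controls against 23.6, 33.8 and 33.1 CPM after silencing. Silenced replicate 1 lay just below the lowest control, while replicates 2 and 3 lay above all controls. The log2 fold change was 0.28 (95% interval -0.06 to 0.62, adjusted p = 0.173). Without si-METTL16 replicate 1 it was 0.43 and passed the threshold (adjusted p = 0.0176, over all alternatives 0.0176 to 0.406).

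NT5C3A was the only nucleotidase of the 4 that passed the test. NT5C3A (ENSG00000122643, chromosome 7 from 33014113 to 33062797) encodes a cytosolic nucleotidase that prefers pyrimidine monophosphates such as CMP and UMP. It had 21.2, 20.1 and 26.9 CPM in the controls against 52.0, 54.7 and 42.4 CPM after silencing. The lowest silenced value lay well above the highest control. Its level reached 219% of the control (log2 fold change 1.13, standard error 0.15, adjusted p = 0.0013), a change exceeded in size by 16.4% of the called genes. All 15 alternatives called it (adjusted p up to 0.00939), and the log2 fold change ran from 1.04 to 1.27 when 1 sample was left out. The counts are per gene, so use of the distal and internal starts shown above cannot be told apart. Its processed copy NT5C3AP1 had 16, 20 and 20 counts in the controls and 2, 33 and 21 after silencing, against 341 to 853 for NT5C3A, and reads could be split between them.

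The other nucleotidases gave intervals that include no change. NT5C2 (ENSG00000076685, chromosome 10 from 103088017 to 103193306), a cytosolic enzyme that prefers IMP and GMP, had 282, 242 and 251 CPM in the controls against 280.2, 252 and 253 CPM after silencing. Its values interleaved, and the interval for its change ran from -10.5% to 14.9% (adjusted p = 0.865). NT5C (ENSG00000125458, chromosome 17 from 75130225 to 75131795), a cytosolic deoxyribonucleotidase, had 6.81, 7.48 and 7.59 CPM in the controls against 6.46, 6.92 and 8.85 CPM after silencing. Here the silenced samples spread on both sides of the controls (log2 fold change 0.02, 95% interval -0.35 to 0.40, adjusted p = 0.922). Exons of genes on the opposite strand cover much of both loci, with 57.1% of the NT5C exon bases shared with ENSG00000279035 and 29.8% of those of NT5C2 with CNNM2. The sources used here do not say whether counting used strand, so reads there are uncertain. NT5E (ENSG00000135318, chromosome 6 from 85449584 to 85495791), the cell-surface ecto-nucleotidase that makes adenosine from AMP, had 112, 82.7 and 83.9 CPM in the controls against 109, 116 and 102 CPM after silencing. Control replicate 1 lay within the silenced range and the other two controls below it (log2 fold change 0.23, 95% interval -0.07 to 0.53, adjusted p = 0.197). Without si-NC replicate 1 the log2 fold change was 0.38 and passed the threshold (adjusted p = 0.0178, over all alternatives 0.0178 to 0.45).

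**Figure D2:**
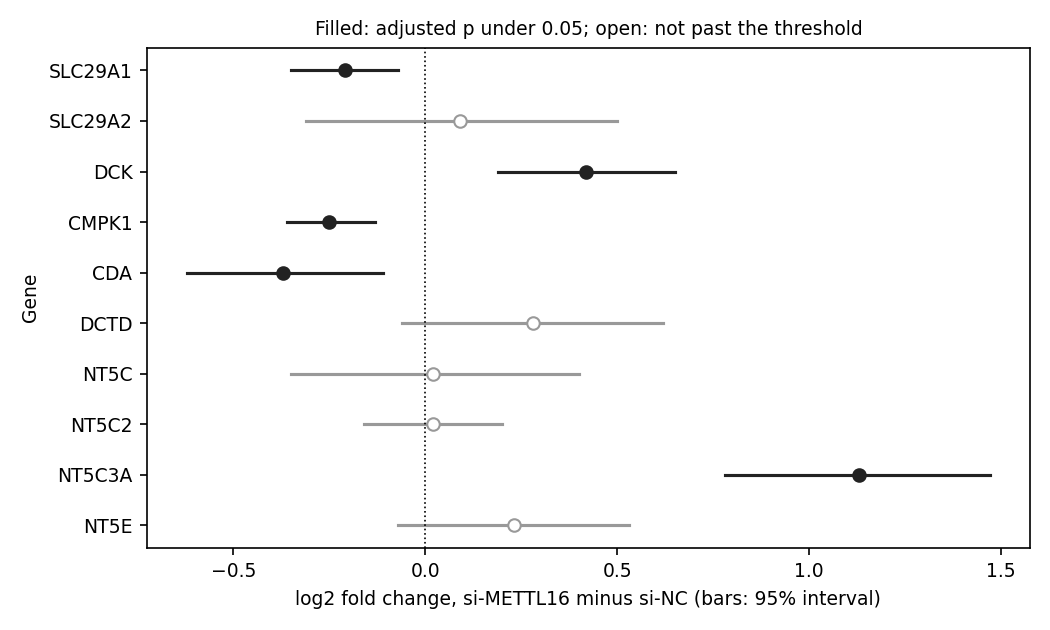
Log2 fold change of each gene, si-METTL16 minus si-NC, with the 95% interval of edgeR's quasi-likelihood fit, filled where the adjusted p was under 0.05. NT5C3A stands at 1.13 and the other 4 filled points lie between -0.37 and 0.42.

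**Figure D3:**
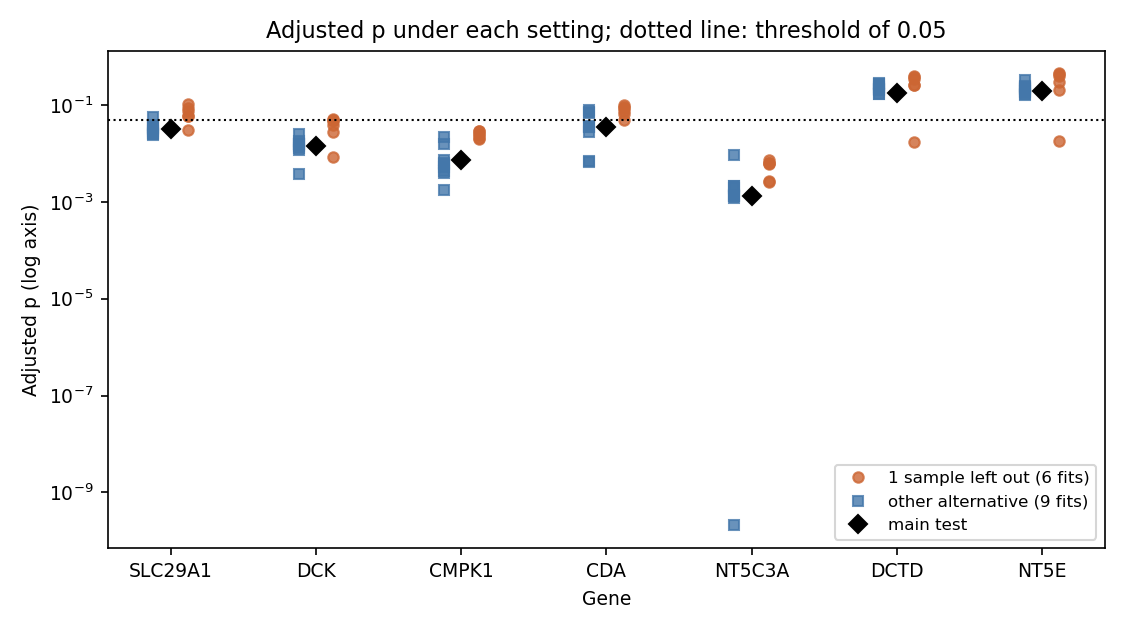
Adjusted p (log axis) of the called genes and of DCTD and NT5E in the main test (black), with 1 of the 6 samples left out (orange) and in the 9 other alternatives (blue), with a dotted line at 0.05. NT5C3A and CMPK1 stay under the line throughout, SLC29A1 and CDA cross it in most of the fits on 5 samples, and the lowest point of NT5C3A is the DESeq2 fit.

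Ratios between members are free of gene length when compared across samples, and they are given as a description. DCK over CDA, activation against inactivation of the drug, was 3.39, 4.24 and 3.35 in the controls and 5.65, 6.81 and 6.53 after silencing. DCK over NT5C3A, a kinase against a pyrimidine nucleotidase, went the other way, from between 1.53 and 2.44 in the controls to between 1.07 and 1.37 after silencing. CMPK1 over NT5C3A was 9.62 ± 1.47 in the controls and 3.68 ± 0.474 after silencing. Each ratio sets members that were already separated between the groups against each other, so the ratios add no test, and enzyme activity was not measured.

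Levels of different genes can be compared only per length, and the deposited FPKM (fragments scaled by gene length and library size) uses a length that is not that of a transcript. The length implied by count and FPKM was 7889 bases for NT5C, whose whole locus spans 1571 bases. It exceeded the MANE Select transcript by 1.66 times for DCK and 8.76 times for NT5C. Among 13095 genes with at least 30 counts in si-NC replicate 1, the implied length exceeded the locus span by more than 1% for 1263 genes (9.64%). Its median ratio to the summed length of all distinct annotated exons, overlapping ones counted again, was 1.00. Levels were therefore also given as CPM per kilobase of the MANE Select transcript. On this scale SLC29A1 was highest in si-NC samples, with 141 ± 3.51, followed by NT5C2 (73.3 ± 5.90) and CMPK1 (73.2 ± 0.874), which did not differ beyond their spread. NT5E (26.1 ± 4.68) and DCK (17.3 ± 1.91) came next, each with a range apart from its neighbours. CDA (14.7 ± 0.442), NT5C3A (13.6 ± 2.18) and DCTD (12.9 ± 0.516) overlapped from neighbour to neighbour, and NT5C (8.09 ± 0.471) and SLC29A2 (6.21 ± 1.51) were lowest and overlapped. In si-METTL16 samples NT5C3A stood at 29.8 ± 3.86, overlapping NT5E at 30.6 ± 1.93 and above DCK at 23.2 ± 1.14, while CDA at 11.4 ± 0.625 lay below DCTD at 15.6 ± 2.96. By deposited FPKM, CMPK1 (37.0) came before NT5C2 (28.5) and SLC29A1 (26.1) in si-NC samples, and NT5C (0.93) was last, so the order of the carriers and kinases depends on the length used. Fold changes within a gene do not depend on it.

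**Figure D4:**
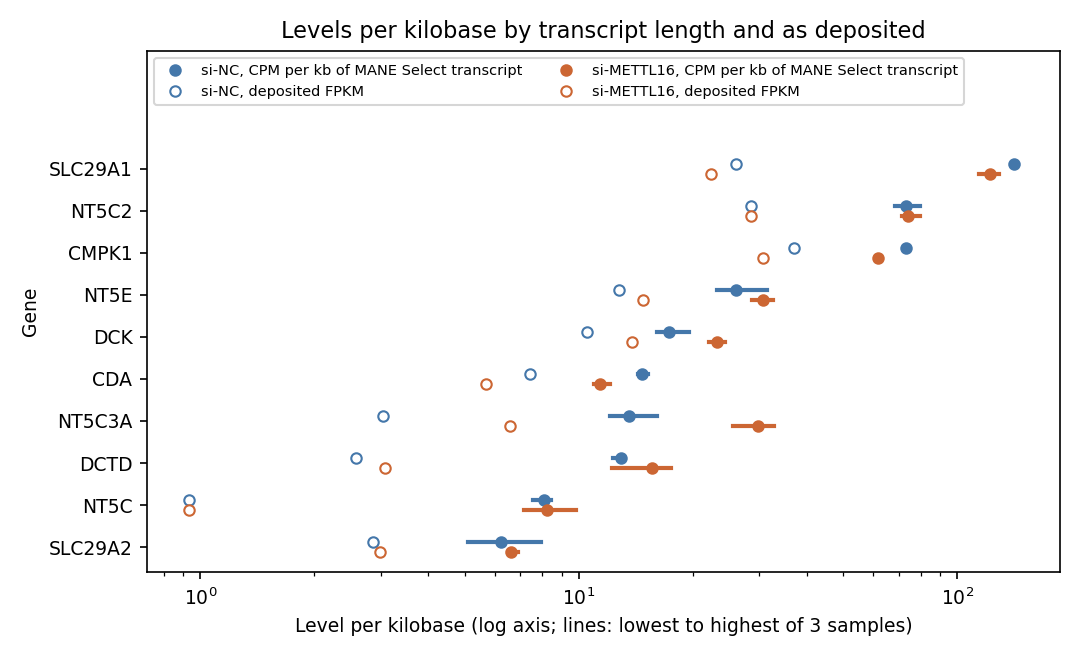
Level of each gene per kilobase (log axis), as CPM per kilobase of the MANE Select transcript (filled, mean with a line from lowest to highest sample) and as the mean deposited FPKM (open), si-NC in blue and si-METTL16 in orange. The gap between filled and open points is widest for NT5C, at 8.09 against 0.93 in si-NC samples, and NT5C3A moves from 13.6 to 29.8 on the filled scale.

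Of the genes around this route, 56 in 8 lists were examined, and 42 of them could be tested. Of those, 21 were called (50.0%, against 35.9% of all tested genes), 13 higher and 8 lower. Their median log2 fold change was 0.04. The lists were chosen with earlier results of these data known, so the share called is a description and not a test. Both testable other transporters fell. SLC29A3, a carrier of lysosomes and mitochondria, went from 12.7 ± 1.17 to 5.98 ± 0.507 CPM (log2 fold change -1.08, adjusted p = 0.00106), and SLC29A4, which also carries monoamines, from 32.2 ± 1.36 to 23.3 ± 2.19 CPM (-0.46, adjusted p = 0.00969). SLC29A3 shares 11.6% of its exon bases with ENSG00000279406 on the same strand, so reads there are uncertain. The concentrative carriers SLC28A1, SLC28A2 and SLC28A3 were too low to test.

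Among 13 tested kinases other than DCK and CMPK1, 4 rose and 2 fell, with a list median of 0.08 on the log2 scale. The cytosolic thymidine kinase TK1 rose from 26.6 ± 4.39 to 58.5 ± 6.47 CPM (log2 fold change 1.14, adjusted p = 0.00106) and the thymidylate kinase DTYMK from 38.6 ± 3.96 to 66.5 ± 1.02 CPM (0.79, adjusted p = 8.0e-04). The genes of the nucleoside diphosphate kinase family NME6 (0.42, adjusted p = 0.00801) and NME1 (0.30, adjusted p = 0.00922) rose less, and NME1 shares exons with the NME1-NME2 readthrough gene. TK2, the mitochondrial kinase of thymidine and deoxycytidine, fell by 0.55 on the log2 scale (adjusted p = 0.0425), a call kept in 6 of 15 alternatives, while UCKL1 fell by 0.38 (adjusted p = 0.0159). CMPK2 was too low to test. Neither of the other nucleotidases with enough counts, NT5M (log2 fold change 0.57, adjusted p = 0.0784) and NT5C3B (0.11, adjusted p = 0.314), passed the threshold, and NT5C1A and NT5C1B could not be tested.

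Of 4 dNTP-removing enzymes, DCTPP1, which splits dCTP and related triphosphates, rose (log2 fold change 0.53, adjusted p = 0.00824), though 41.2% of its exon bases overlap ZNF771 on the opposite strand. SAMHD1, a dNTP triphosphohydrolase, rose by 0.35 (adjusted p = 0.0336), with 8 of 15 alternatives calling it, and the list median was 0.18. Among 8 tested genes of nucleoside and base cleavage and salvage (median 0.11), ADA, which deaminates adenosine and deoxyadenosine, rose from 24.7 ± 1.69 to 60.2 ± 2.09 CPM (log2 fold change 1.29, adjusted p = 1.3e-04). UPP1, a uridine phosphorylase, rose by 0.39 (adjusted p = 0.019, up to 0.0598 over the alternatives), and TYMP, the thymidine phosphorylase, fell by 0.88 (adjusted p = 0.00124). TYMP shares 10.0% of its exon bases with SCO2 and 8.97% with ODF3B on the same strand, so reads there are uncertain. UPP2 and ADA2 were too low to test.

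All 4 listed genes of ribonucleotide reductase and thymidylate synthase, which gemcitabine metabolites inhibit, were called, against 35.9% of all tested genes. Their list median was 1.33. RRM2, TYMS and RRM1 rose by 2.71, 1.40 and 1.26 on the log2 scale and RRM2B, the p53-inducible small subunit, fell by 0.44 (adjusted p = 2.4e-04, 0.00139, 2.6e-04 and 8.6e-04 in this order), and 39.9% of the TYMS exon bases overlap ENOSF1 on the opposite strand. Of 6 tested genes around NT5E (median -0.17), the adenosine receptor genes ADORA2A (log2 fold change 1.35, adjusted p = 0.00536) and ADORA2B (0.74, adjusted p = 0.00236) rose. ADORA2B went from 92.9 ± 10.8 to 155 ± 16 CPM, whereas ADORA2A stayed under 3 CPM and shares 56.8% of its exon bases with the SPECC1L-ADORA2A readthrough gene. ENTPD2, an ecto-enzyme acting on ATP, fell by 1.09 (adjusted p = 0.00943), also at a low level, from 3.25 ± 0.593 to 1.52 ± 0.102 CPM. ENTPD1, ENTPD3, ENPP3, ALPL and ADORA3 were too low to test. Of the 3 tested efflux pumps (median -0.27), ABCC5 fell by 0.32 (adjusted p = 0.0103), ABCC4 and ABCC10 did not pass the threshold, and ABCC11 was not testable.

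**Figure D5:**
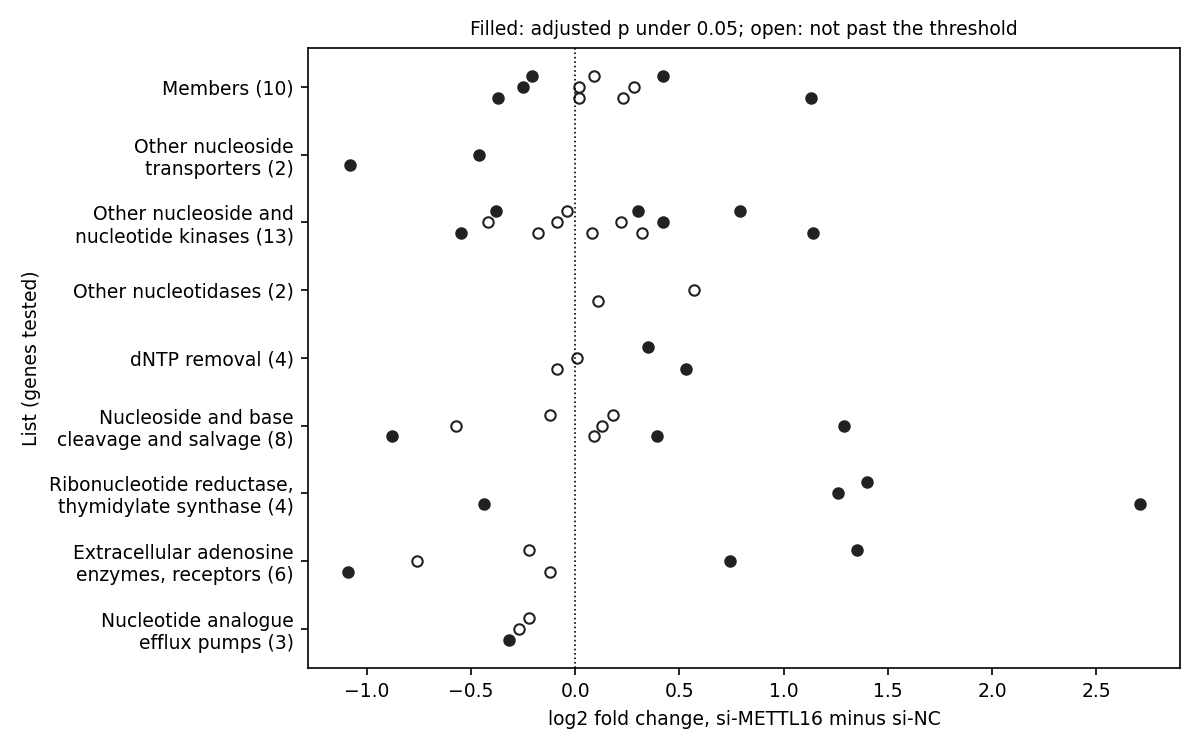
Log2 fold change of every tested gene, by list (number tested in parentheses), filled where the adjusted p was under 0.05 and open otherwise. The widest list is that of ribonucleotide reductase and thymidylate synthase, from -0.44 to 2.71, and both points of the other nucleoside transporters lie below 0.

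The genes whose pattern over the 6 samples was most like that of NT5C3A, by the root mean square difference of log2 CPM relative to each gene's si-NC mean, were RBL1 (0.099), RFC3 (0.102) and LINC02001 (0.104), out of 15088 compared. For CDA they were PARN (0.012), EIF4BP6 (0.013) and CHD6 (0.023). Within a difference of 0.1 lay 417 genes for CDA and 1 for NT5C3A, on a measure under which genes with small changes lie closer together.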

How the data were processed

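RNA-seq data of 6 PANC-1 samples were used, grouped by title. Raw counts for each gene and FPKM values were deposited by the authors in 1 table. Per the labels, the processing notes name HISAT2 2.0.4, StringTie 1.3.0 and GRCh38, without their roles. The counting program, annotation release and use of strand are not given in the sources used here.

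Counts were scaled by TMM, filtered with filterByExpr (minimum count 10, minimum total 15) and compared across all genes with the quasi-likelihood test (glmQLFTest) of edgeR 4.0.16 under R 4.3.3. P-values were adjusted after Benjamini and Hochberg and called under 0.05. The methods name limma, which was run as an alternative (3.58.1, on voom values and on log2(FPKM + 1) and log2(FPKM + 0.1)). The others were DESeq2 1.42.0, its size factors, no TMM, other filters, a replicate block and each sample left out. Total counts of 15725298 to 18054436 and 3 replicates a group limit the precision, and p-values cover the spread between these samples only. Log2 CPM values used a prior count of 2.

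Named were all members, METTL16, up to 3 called genes a direction from each list, and the 3 nearest patterns to the called members at either end; NME1 and the other marker genes were named after their values were seen. The members and lists were chosen with earlier results of these data known. Lengths, exons and MANE Select transcripts came from GENCODE v44 (GRCh38), coordinates of genes from the deposited table, and promoters from RefSeq. The test was checked on simulated counts with planted changes larger than those of most called members, in genes above the median level only. The check therefore does not cover smaller changes or genes at low counts.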

Additional observations from a re-analysis of the deposited data

How the results depend on the processing

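The processing was varied in 15 alternatives, of which DESeq2 and limma on FPKM changed the scaling together with the test. The number of genes called was 5418 and stayed between 4159 and 4526 when 1 sample was left out. The 2 members called higher became 1 to 3 and the 3 called lower became 1 to 2 in those fits, which have fewer samples. Without a filter on low counts, which adds tests, 1 member was called lower. Over the 10 members and 15 alternatives, 133 of 150 fold changes kept their side of the threshold, 15 lost the call and 2 gained it. No called one changed sign. Only the 5 called members could lose a call. The losses fell on CDA, SLC29A1 and DCK, which 7, 9 and 14 of the 15 alternatives called. Of 630 such fold changes of the listed genes, where again only called genes could lose a call, 20 lost it and 8 gained one. Samples with the same replicate number deviated from their groups with correlations of 0.0253, 0.0371 and 0.0298. For samples with different numbers the mean correlation was -0.0154. Values this small cannot decide whether the numbers mark a shared batch. With the replicate block, 5013 genes were called, CDA lost its call (adjusted p = 0.0683), the members called lower numbered 2, the log2 fold change of METTL16 was -1.48, and no other member's call changed. The other scalings moved the median of all genes by at most 0.03 on the log2 scale. NT5C and CDA rest on the fewest counts, 106 to 215 a sample. With 3 samples a group, the influence of single samples was examined only by leaving each one out.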
